A study of Oryza sativa with 18 samples.

Results

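Phenylalanine ammonia-lyase (PAL) genes were followed through young panicles of Wuxiang S (WXS), a photo-thermosensitive genic male sterile rice line. The members were a list of 9 locus identifiers, taken by name from the table of coding genes. The list was chosen with earlier results of these data known. Of these 9 loci, 7 had a row among the 47919 genes of that table. LOC_Os11g48110 and LOC_Os12g33610 had none and were not analysed here. Among the other 7, by the chromosome in the identifier, 4 lie on chromosome 2 (LOC_Os02g41630, LOC_Os02g41650, LOC_Os02g41670 and LOC_Os02g41680), 2 on chromosome 4 (LOC_Os04g43760 and LOC_Os04g43800) and 1 on chromosome 5 (LOC_Os05g35290). The identifiers belong to the MSU rice annotation, version 7.0. The files give no gene name or function for single loci, so every member is called by its identifier.

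The 18 libraries were rRNA-depleted, strand-specific RNA-seq libraries of whole young panicles, in 6 groups of 3 replicates. Sterile plants, WXS (S), stood in the field at a mean above 24 °C with days longer than 12 h. Fertile plants, WXS (F), were the same line, moved once the panicle reached about 1 cm into an incubator at about 21 °C with 12 h of light, for 3 to 4 weeks. Panicles were taken at pollen mother cell formation (P2), meiosis (P3) and microspore formation (P4), and groups are named by condition and stage, from SP2 to FP4. Fertility, temperature, day length and the move from field to incubator changed together, so their contributions cannot be told apart. A whole panicle holds many cell types, and a lower value from fewer cells of a type cannot be told apart from one due to less RNA per cell.

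PAL removes ammonia from phenylalanine and yields cinnamic acid, the first step of the phenylpropanoid pathway. Cinnamic acid is the starting point for lignin, flavonoids and hydroxycinnamic acid esters. Plants usually carry several PAL genes, which often sit side by side on a chromosome and are expressed at different levels in different organs. In anthers, phenolic compounds made from this pathway enter the pollen wall.

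Total coding-gene counts lay between 30577833 and 52222861 per library. Levels of marker lists are given as normalised counts (CPM, counts scaled to library size) summed over the list. Calls are those of the test of WXS (F) against WXS (S) described below. Of all genes tested, 10.3% were called higher and 7.7% lower at P2. These shares were 14.9% and 6.63% at P3, and 15.6% and 6.73% at P4. All 5 floral organ markers had 10 or more counts in each library, and their sum was lower in WXS (F), at 148 to 160 CPM against 212 to 267 at P2, 210 to 220 against 350 to 491 at P3 and 466 to 488 against 534 to 559 at P4. Of these 5, 0 were called at P2 and at P4, and 2 were called lower at P3. At P4, 3 of the 5 had a positive log2 fold change, with a median of 0.20. The sum of 6 tapetum markers was 10.5 to 12.7 CPM in SP2 and 11.6 to 14.6 in FP2, 59.9 to 83.5 in SP3 against 126 to 134 in FP3, and 125 to 143 in SP4 against 1528 to 1642 in FP4. Its members went both ways. Of the 5 tested at P2, 1 was called higher and 1 lower. Of the 6 tested at P3 and at P4, 3 and 2 were called at P3, and 3 and 1 at P4. The sum of 6 meiocyte markers was lower in WXS (F), at 168 to 174 CPM against 252 to 275 at P2, 161 to 169 against 341 to 348 at P3 and 69.3 to 73.6 against 187 to 204 at P4. At P2, however, 1 of these 6 was called higher and 0 lower, with a median log2 fold change of -0.02, and 0 higher and 3 lower were called at P3 and at P4. The sum of 3 leaf markers was 8.47 to 8.72 CPM in FP2 against 16.3 to 24.5 in SP2, 11.8 to 13.1 in FP3 against 28.8 to 36.2 in SP3, and overlapped at P4, at 60.9 to 67.4 in FP4 and 66.6 to 80.4 in SP4. Of these 3, 1 was called lower and 0 higher at each stage. At P4, 2 of the 3 had a positive log2 fold change, with a median of 0.34. The tapetum sum was thus higher in WXS (F) at P3 and P4 and overlapped at P2. The floral organ, meiocyte and leaf sums were not higher in WXS (F) at any stage. Their part in the PAL results was not tested.

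The summed level of the family was higher in WXS (F) at each stage and rose toward P4 in both conditions. Single members differed from the sum, as given below. Levels between genes are given as FPKM, the fragments of a gene divided by its length and by the size of the library. The deposited FPKM of the members did not follow the listed gene lengths. In SP2 replicate 1, LOC_Os02g41630 (2614 bases) had 3693 counts and 21.5 FPKM. There LOC_Os02g41680 (3989 bases) had 97 counts and 0.582 FPKM, almost the same number of counts per FPKM. Levels and shares between members carry this uncertainty. The summed FPKM of the 7 members was 51.9 ± 11.9 (SD, n = 3) in SP2 and 190 ± 23.7 in FP2. At P3 it was 55.9 ± 10.9 in SP3 and 451 ± 110 in FP3. At P4 it was 336 ± 17.8 in SP4 and 909 ± 69.7 in FP4. The ratio of the means, F over S, was therefore 3.66 at P2. It was 8.08 at P3 and 2.70 at P4. Libraries of the 2 conditions did not overlap at any stage. The 7 members took 0.0191% of coding-gene counts in SP2 and 0.362% in FP4, as means of 3 libraries.

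LOC_Os02g41630 and LOC_Os02g41650 made up most of this sum. LOC_Os02g41630 alone held 48.3% ± 7.07 (SD, n = 3) of the summed FPKM in SP2 and 54.1% ± 9.49 in FP2. Its share was 57.9% ± 5.06 in SP3 against 77.5% ± 14.9 in FP3. At P4 it was 72.8% ± 0.754 in sterile and 88.2% ± 0.236 in fertile panicles. Adding LOC_Os02g41650 brought the share to between 88.4% and 98.8% in the 18 libraries. LOC_Os02g41630 ranked between 1779 and 3155 among the 47919 genes by FPKM in the SP2 and SP3 libraries, between 278 and 339 in FP2, at 50 or 51 in FP3, between 84 and 106 in SP4, and at 19, 20 and 24 in FP4.

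**Figure D1:**
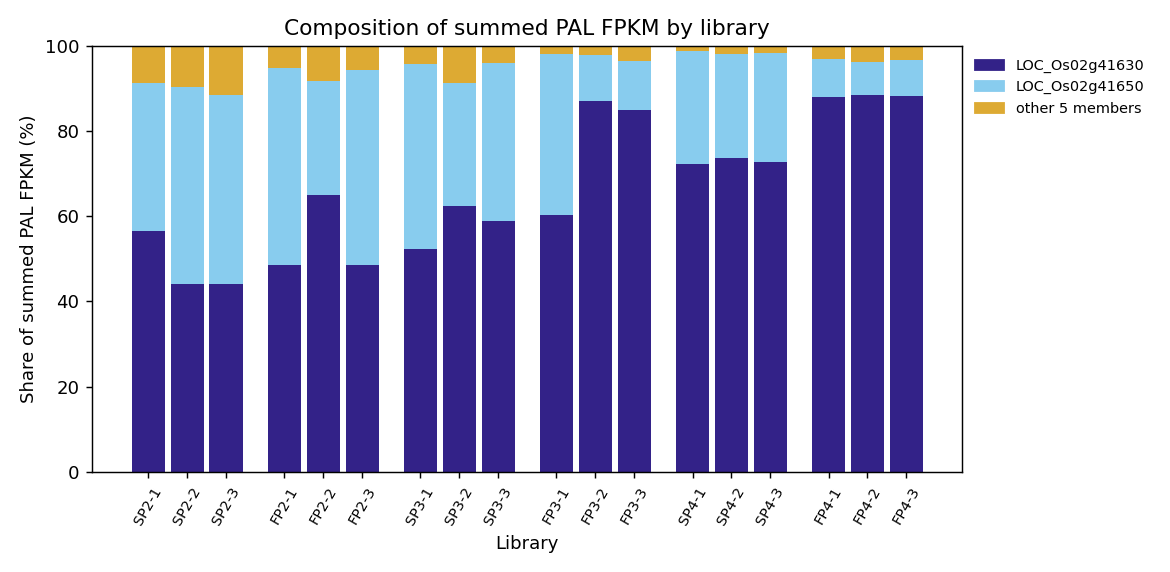
Stacked bars give the share (%) of the summed PAL FPKM held by LOC_Os02g41630, LOC_Os02g41650 and the other 5 members in each of the 18 libraries, named by group and replicate. LOC_Os02g41630 holds 88.2% on average in FP4, and FP3 replicate 1 differs from the other FP3 libraries in its larger LOC_Os02g41650 share of 37.8%.

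The order of the other members depended on the group. LOC_Os02g41680 came next by mean FPKM in every group but SP2, where LOC_Os04g43760 held that place and the ranges of both overlapped. LOC_Os02g41670 and LOC_Os05g35290 were low in the WXS (S) groups, with no library above 0.516 FPKM. In SP2 the ranges of LOC_Os02g41630 and LOC_Os02g41650 overlapped, so their order there is within the spread of the libraries. In the other 5 groups LOC_Os02g41630 was above LOC_Os02g41650 with no overlap.

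**Figure D2:**
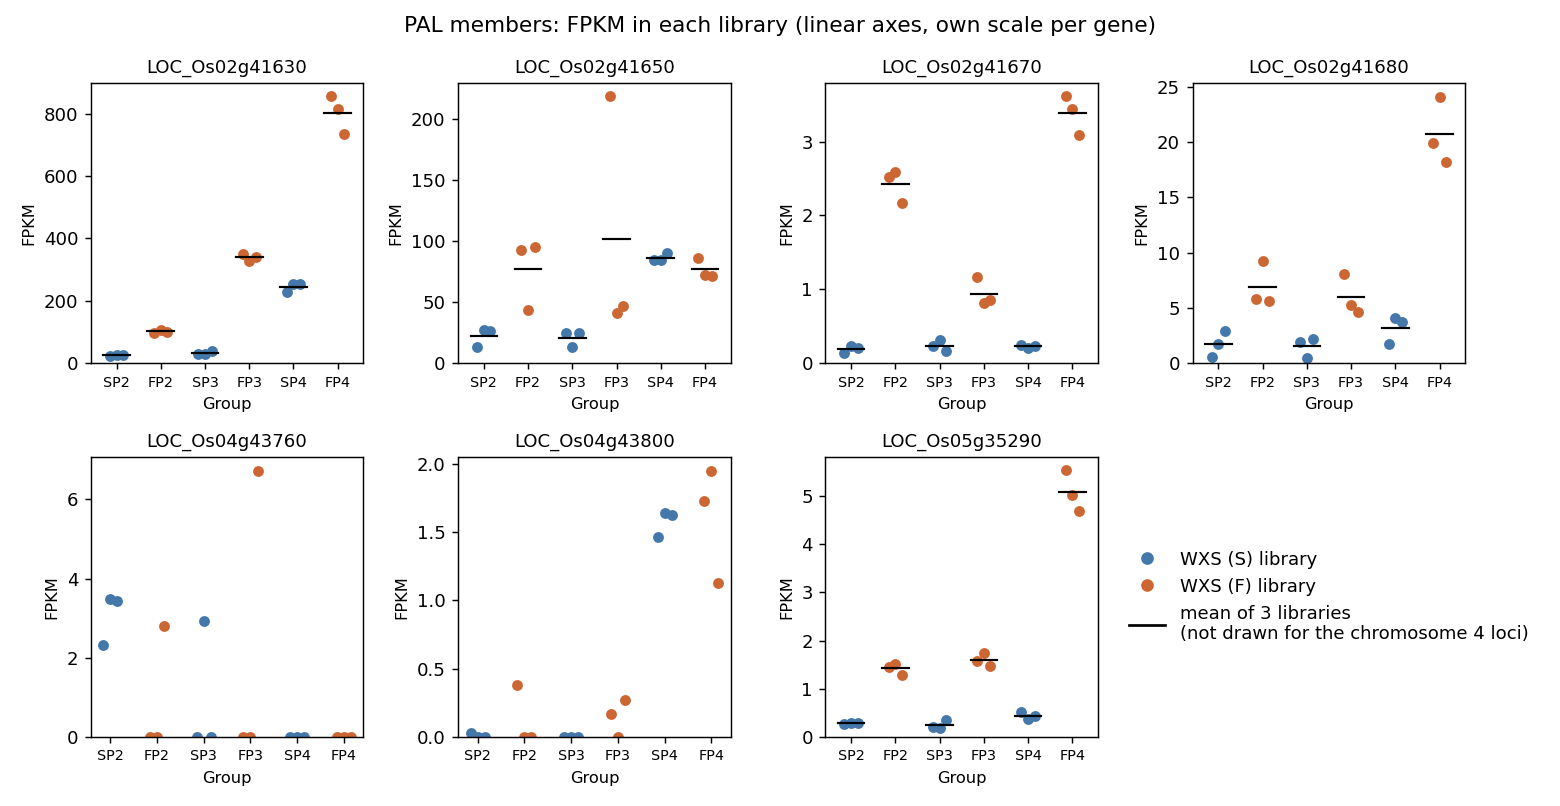
Each panel plots the FPKM of 1 PAL member (linear axis with its own scale) in the 6 groups; points are libraries and black lines are means of 3 libraries, not drawn for the 2 chromosome 4 loci. LOC_Os02g41630, LOC_Os02g41670, LOC_Os02g41680 and LOC_Os05g35290 have all FP4 libraries above all SP4 libraries, while LOC_Os02g41650 does not.

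The comparison of fertile with sterile panicles was made on the counts of the 6 libraries of a stage, with edgeR's quasi-likelihood test. A gene was called when its Benjamini-Hochberg adjusted P was below 0.05 and its log2 fold change was at least 1 in size, and positive values mean higher in WXS (F). At P2, 5 of the 6 members tested were called higher and 0 lower, where 10.3% of all genes tested were called higher. At P3, 5 of 5 were called higher, against 14.9% of all genes. At P4, 4 of 6 were called higher, against 15.6%. All F libraries lay above all S libraries in normalised counts for 5 of 6 members at P2, 5 of 5 at P3 and 4 of 6 at P4, a pattern shown by 28%, 29.1% and 31.7% of all genes tested at these stages. The median log2 fold change of the members tested from P2 to P4 was 2.10, 2.40 and 2.22. For all genes tested it was 0.04, 0.04 and 0.003. A member had to reach 10 counts in 3 libraries of a fit to be tested, so one that is high in a single group enters through that group. Because the list was chosen with earlier results of these data known, these counts are a description.

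LOC_Os02g41630 was the most abundant member and was higher in WXS (F) than in WXS (S) at all 3 stages. It had 3693, 4603 and 4826 counts in the SP2 libraries and 17267, 17266 and 19709 in the FP2 libraries. At P3 the counts were 5308, 4141 and 6654 in SP3 and 69812, 62426 and 61787 in FP3. At P4 they were 33940, 37699 and 42852 in SP4 and 140567, 148298 and 146344 in FP4. The F libraries were above the S libraries at every stage, and replicates of a group differed by at most 1.61 times in counts not scaled to library size. That spread was in SP3, where the libraries had 112, 135 and 145 CPM. The edgeR log2 fold change was 2.12 at P2 (SE 0.077, adjusted P = 1.17e-05), 3.48 at P3 (SE 0.12, adjusted P = 1.08e-05) and 1.72 at P4 (SE 0.047, adjusted P = 6.98e-07), that is 4.34-fold, 11.2-fold and 3.31-fold.

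LOC_Os02g41650, the second member by level, was higher in WXS (F) at P2 and P3 and close to equal at P4, with wide spread among replicates before P4. It had 55.2, 103 and 99.1 CPM in SP2 and 360.2, 173 and 392 in FP2. At P3 it had 92.0, 62.3 and 91.7 CPM in SP3 and 882, 167 and 197 in FP3. At P4 it had 353, 357 and 363 CPM in SP4 and 339, 294 and 314 in FP4. Replicate 1 of FP3 was 5.68 times the lowest FP3 library in counts, whereas the replicates of SP4 and of FP4 differed by at most 1.21 times. The edgeR log2 fold change was 1.88 at P2 (SE 0.39, adjusted P = 0.0134) and 2.40 at P3 (SE 0.73, adjusted P = 0.0439). Without FP3 replicate 1 the P3 value was 1.24 (adjusted P = 0.00664), and the call at P3 was lost when SP3 replicate 1, 2 or 3 was left out (adjusted P = 0.0955, 0.139 and 0.110). At P4 the log2 fold change was -0.15 (SE 0.056, adjusted P = 0.0590), which was not called, although in CPM the FP4 libraries lay below those of SP4 without overlap, as did 31.3% of all genes tested.

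LOC_Os02g41670, next along chromosome 2, had a low level and the largest fold changes of the members at P2 and P4. Its counts were 23, 42 and 37 in SP2 and 445, 417 and 419 in FP2. At P3 they were 41, 46 and 29 in SP3 and 231, 153 and 154 in FP3. At P4 they were 36, 31 and 40 in SP4 and 589, 619 and 610 in FP4. The WXS (S) level was flat over the stages, at means of 0.188, 0.236 and 0.227 FPKM, while WXS (F) was lowest at P3, at 0.940 FPKM against 2.42 in FP2 and 3.38 in FP4. The edgeR log2 fold change was 3.73 at P2 (SE 0.22, adjusted P = 5.89e-05), 2.01 at P3 (SE 0.36, adjusted P = 0.00495) and 3.88 at P4 (SE 0.12, adjusted P = 1.16e-06), or 13.2-fold, 4.04-fold and 14.7-fold.

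LOC_Os02g41680, the last of the chromosome 2 loci, was also higher in WXS (F) at each stage, but its replicates in WXS (S) varied most among the members called. It had 97, 293 and 535 counts in SP2 and 1007, 1485 and 1073 in FP2. At P3 it had 338, 67 and 369 counts in SP3 and 1598, 986 and 822 in FP3. At P4 it had 246, 599 and 621 counts in SP4 and 3202, 4317 and 3540 in FP4. The lowest F library was above the highest S library at each stage, and S replicates differed by up to 5.52 times in counts not scaled to library size. That spread was in SP2, where the libraries had 2.37, 6.27 and 11.1 CPM. The edgeR log2 fold change was 2.08 at P2 (SE 0.56, adjusted P = 0.0296), 2.12 at P3 (SE 0.48, adjusted P = 0.0139) and 2.72 at P4 (SE 0.36, adjusted P = 0.00181). The P2 call was lost when SP2 replicate 2 or FP2 replicate 1, 2 or 3 was left out (adjusted P = 0.0957, 0.0559, 0.0794 and 0.0609).

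LOC_Os05g35290 on chromosome 5 was higher in WXS (F) than in WXS (S) at each stage. Its replicates differed most in SP3, by 2.11 times in counts not scaled to library size, at 0.780, 0.881 and 1.24 CPM. Its counts were 45, 48 and 53 in SP2 and 250, 239 and 243 in FP2. At P3 they were 37, 27 and 57 in SP3 and 302, 320 and 259 in FP3. At P4 they were 74, 53 and 72 in SP4 and 877, 881 and 897 in FP4. The S and F libraries lay far apart at every stage, and the gap was widest at P4. The edgeR log2 fold change was 2.39 at P2 (SE 0.17, adjusted P = 1.31e-04), 2.77 at P3 (SE 0.24, adjusted P = 2.42e-04) and 3.53 at P4 (SE 0.14, adjusted P = 3.23e-06), or 5.24-fold, 6.82-fold and 11.6-fold.

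**Figure D3:**
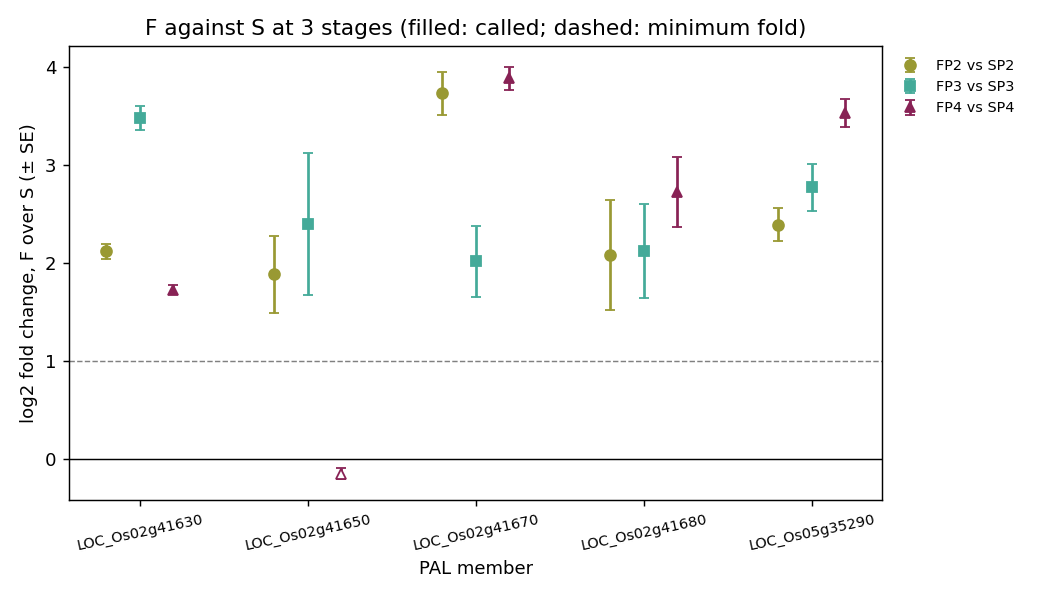
Points give the log2 fold change of WXS (F) over WXS (S) for 5 PAL members at P2, P3 and P4 (3 against 3 libraries each), with bars of 1 SE; filled points were called and the dashed line marks a log2 fold change of 1. All points drawn are above 1 except LOC_Os02g41650 at P4, at -0.15. The chromosome 4 loci are not drawn. Of these, LOC_Os04g43800 was tested at P4 (0.02) and LOC_Os04g43760 at P2, and neither was called.

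The pair on chromosome 4 gave values that were 0 or near 0 in many libraries. LOC_Os04g43760 had 390, 606 and 619 counts in SP2, 535 in FP2 replicate 3, 425 in SP3 replicate 2 and 1197 in FP3 replicate 3. In the other 12 libraries, among them all those of P4, it stood at a count of 1 with an FPKM between 1e-06 and 4.1e-05. A single counted fragment cannot give so low an FPKM, and 149 genes of the table had such a value in 1 library and at least 100 counts in another. Whether the locus was off or its estimate failed in these libraries cannot be told apart. No fold change is given for this locus, and it was not called at P2, the only stage at which it passed the count filter. That rests on FP2 replicate 3, since without this library the locus was called lower in FP2, where the other 2 libraries are at a count of 1.

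LOC_Os04g43800 was detected in all libraries of P4 in both conditions. It had 222, 249 and 280 counts in SP4 and 289, 361 and 228 in FP4. The ranges overlapped, and the edgeR log2 fold change was 0.02 (SE 0.19, adjusted P = 0.924), with its sign changing under other settings. At P2 and P3 it was listed at 0 in 8 of the 12 libraries and had 5 counts in SP2 replicate 1, 69 in FP2 replicate 1, 34 in FP3 replicate 1 and 50 in FP3 replicate 3.

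The chromosome 2 loci belong to a family of similar sequences, and the counting program and its handling of fragments that match several loci are not given in the sources used here. How the counts divide among these 4 loci is therefore uncertain, and their sum was tested as 1 feature, a choice made after the data were seen. The sum was 35.5 to 55.4 FPKM in SP2 against 161 to 203 in FP2. It was 41.7 to 66.4 FPKM in SP3 against 374 to 576 in FP3, and 314 to 348 in SP4 against 829 to 965 in FP4. The groups did not overlap at any stage. The edgeR log2 fold change of the summed counts was 2.03 at P2 (SE 0.16, adjusted P = 2.12e-04), 3.13 at P3 (SE 0.18, adjusted P = 5.47e-05) and 1.45 at P4 (SE 0.042, adjusted P = 8.90e-07). Leaving out each library in turn kept it between 1.83 and 2.13 at P2, between 2.96 and 3.22 at P3 and between 1.40 and 1.48 at P4, all past the threshold.

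Changes between consecutive stages within a condition were tested in 1 edgeR fit of all 18 libraries, and the steps share the libraries of the stage between them. From SP2 to SP3, 0 of the 7 members were called, against 9.79% of all genes. LOC_Os02g41630 was the only member with an unadjusted P below 0.05 in this step, at a log2 fold change of 0.42 (adjusted P = 0.00145), which is under the minimum size, and DESeq2 also called 0 members. From SP3 to SP4, 3 of 7 were called higher, against 12.6%. LOC_Os02g41630 rose with a log2 fold change of 3.02 (adjusted P = 2.52e-12) and LOC_Os02g41650 with 2.19 (adjusted P = 0.00434). LOC_Os04g43800, listed at 0 in SP3, was also called higher in SP4. That call rests on the SP3 values of 0, and how counts divide between the 2 chromosome 4 loci is uncertain too. The summed FPKM of these 2 loci overlapped, at 1e-06 to 2.94 in SP3 and 1.47 to 1.64 in SP4.

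In WXS (F) members were called in both steps, but the 1 called higher in the first was close to the share of all genes. From FP2 to FP3, 1 of 7 was called higher and 1 lower, against 11.7% and 5.92% of all genes. LOC_Os02g41630 rose by a log2 fold change of 1.80 (adjusted P = 3.22e-10) and LOC_Os02g41670 was 2.47-fold lower (adjusted P = 5.24e-04). LOC_Os02g41650 had a log2 fold change of 0.45 (adjusted P = 0.534), which was -0.74 without FP3 replicate 1. From FP3 to FP4, 4 of 7 were called higher, against 9.18%. These were LOC_Os02g41630 at 1.25 (adjusted P = 1.44e-08), LOC_Os02g41670 at 1.86 (adjusted P = 2.43e-05), LOC_Os05g35290 at 1.68 (adjusted P = 7.43e-07) and LOC_Os02g41680 at 1.81 (adjusted P = 0.0140) on the log2 scale. The call of LOC_Os02g41680 was lost without FP3 replicate 2 or FP3 replicate 3 (adjusted P = 0.0553 and 0.0554). LOC_Os02g41650 had -0.37 (adjusted P = 0.620), and 0.81 without FP3 replicate 1.

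**Figure D4:**
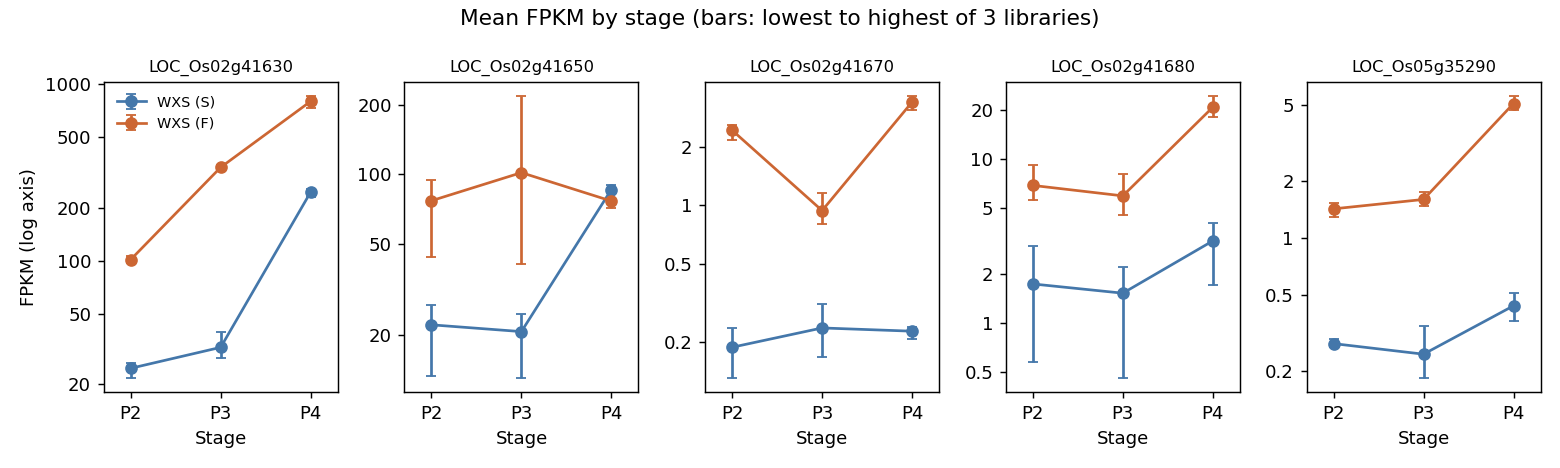
Each panel gives the mean FPKM (log axis, own scale) of 1 PAL member at P2, P3 and P4 in WXS (S) and WXS (F), with bars from the lowest to the highest of 3 libraries. LOC_Os02g41630 increases at each stage in WXS (F) and mainly from SP3 to SP4 in WXS (S), and LOC_Os02g41670 is lowest at P3 in WXS (F).

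Whether the F-to-S difference itself changed from stage to stage was tested as an interaction in the same fit. Between P2 and P3, 2 of 7 members were called, against 14% of all genes. The log2 difference of LOC_Os02g41630 was larger at P3 by 1.38 (SE 0.12, edgeR adjusted P = 3.95e-07) and that of LOC_Os02g41670 changed by -1.69 (SE 0.36, adjusted P = 0.00220). Between P3 and P4, 3 of 7 were called, against 9.28%. The value changed by -1.77 for LOC_Os02g41630 (SE 0.12, adjusted P = 9.20e-08), by -2.56 for LOC_Os02g41650 (SE 0.73, adjusted P = 0.0268) and by 1.85 for LOC_Os02g41670 (SE 0.36, adjusted P = 0.00195). For LOC_Os02g41650 it was -1.38 without FP3 replicate 1 (adjusted P = 0.0381), and the call was lost without FP4 replicate 2 or FP4 replicate 3 (adjusted P = 0.0591 and 0.0546). Between P2 and P4, 1 of 7 was called, against 15.3%, which was LOC_Os05g35290 with a difference larger at P4 by 1.15 (SE 0.23, adjusted P = 0.00143).

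Over the 18 libraries, Pearson's r of log2(CPM + 1) was 0.65 between LOC_Os02g41630 and LOC_Os02g41670, 0.83 between LOC_Os02g41630 and LOC_Os05g35290, 0.92 between LOC_Os02g41670 and LOC_Os05g35290, and 0.92 between LOC_Os02g41680 and LOC_Os05g35290. These are descriptions over libraries that fall into 6 groups and share stage and condition. Among 21017 other genes with a mean of at least 1 CPM, those most like LOC_Os02g41630 were LOC_Os08g32120, LOC_Os01g45700, LOC_Os11g34720, LOC_Os01g02139 and LOC_Os11g42960, with r between 0.992 and 0.994. LOC_Os01g45700, for example, had mean FPKM of 1.35, 1.44 and 18.8 in WXS (S) from P2 to P4 and of 8.29, 23.2 and 49.8 in WXS (F). Those most like LOC_Os02g41670 were LOC_Os06g21140, LOC_Os03g31430, LOC_Os01g46750, LOC_Os10g36830 and LOC_Os01g42234, with r between 0.954 and 0.977. LOC_Os06g21140 had 3.09, 2.92 and 3.49 FPKM in WXS (S) and 10.7, 6.88 and 17.4 in WXS (F), where it too was lowest at P3.

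Enzymes on both sides of PAL were read from lists drawn up from general knowledge of rice loci, which the files do not annotate, so single loci are given by identifier only. The list of enzymes after PAL held 25 loci, of the classes that carry cinnamic acid to lignin precursors. At P2, 5 of the 22 tested were called higher and 3 lower, with a median log2 fold change of 0.38. At P3, 14 of 21 were called higher and 2 lower, with a median of 1.67. At P4, 14 of 22 were called higher and 0 lower, with a median of 1.26. The list of enzymes that supply phenylalanine held 6 loci, of which 0 of 5 were called higher and 1 lower at P2, 0 and 1 of 6 at P3, and 1 and 1 of 6 at P4. The shares of all genes tested were 10.3% higher and 7.7% lower at P2, 14.9% and 6.63% at P3, and 15.6% and 6.73% at P4.

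Among the 29 loci of both lists that were tested at any stage, 5 were called higher at all 3 stages and 1 lower at all 3. The share of all genes called alike at several stages was not computed, so these counts have no background beside them. Among the 5, LOC_Os02g08100 had 319, 336 and 412 counts in SP2 and 1193, 925 and 1094 in FP2, and its log2 fold change from P2 to P4 was 1.65, 3.51 and 2.70 (edgeR adjusted P = 1.20e-04, 8.20e-06 and 1.95e-07). As with LOC_Os02g41630, the P3 value was the highest of the 3 stages. LOC_Os02g39850 had 1.89, 2.61 and 1.04 at the 3 stages, and LOC_Os08g38900 had 1.15, 2.29 and 2.35. The sterile replicates of LOC_Os08g38900 were spread widely, at 14.3, 60.4 and 15.1 CPM in SP3 and 41.8, 110 and 40.6 in SP4. LOC_Os10g36848 had 0, 10 and 5 counts in SP2 and 139, 124 and 98 in FP2, and at P4 15, 18 and 18 counts in SP4 against 426, 544 and 490 in FP4. LOC_Os08g14760 had 0, 0 and 5 counts in SP2 and 38, 21 and 41 in FP2, and at P4 42, 43 and 40 counts in SP4 against 545, 596 and 571 in FP4.

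The locus lower at all 3 stages was LOC_Os12g38900, from the list of phenylalanine supply. It had 427, 428 and 488 counts in SP2 and 10, 4 and 18 in FP2. At P3 it had 3381, 2503 and 3289 counts in SP3 and 165, 129 and 160 in FP3. At P4 it had 1616, 1503 and 1887 counts in SP4 and 24, 20 and 27 in FP4. The log2 fold changes from P2 to P4 were -5.34, -4.45 and -6.33 (edgeR adjusted P = 1.83e-04, 9.90e-06 and 2.45e-07), in the direction opposite to the PAL members that were called. LOC_Os02g26810, from the list after PAL, changed direction, with -2.45 at P2 (adjusted P = 8.51e-05) and 2.48 at P3 (adjusted P = 1.60e-04).

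A further 7 loci of the list after PAL were called higher at P3 and P4 and not called at P2. For this pattern too, the share of all genes was not computed. Their log2 fold changes at P4 were 3.13 for LOC_Os08g06100, 2.16 for LOC_Os09g25150, 2.01 for LOC_Os02g09490, 1.85 for LOC_Os08g34280, 1.58 for LOC_Os08g34790, 1.45 for LOC_Os05g25640 and 1.40 for LOC_Os06g44620. The P3 values of the same loci lay between 1.02 and 2.81, and the P2 values between -0.81 and 0.89. LOC_Os09g25150 and LOC_Os08g34280 were the ones with a negative value at P2.

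**Figure D5:**
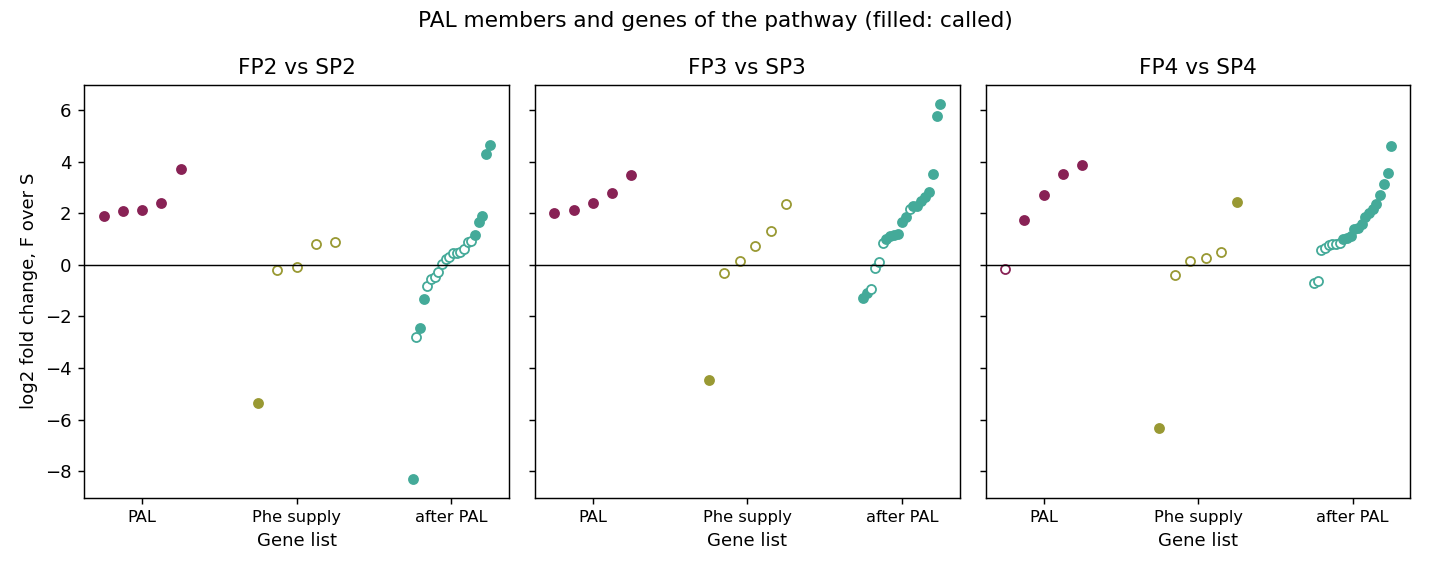
Points give the log2 fold change of WXS (F) over WXS (S) at P2, P3 and P4, and filled points were called. Drawn are 5 PAL members, without the chromosome 4 loci, the loci of phenylalanine supply and the enzymes after PAL. The lowest supply locus is LOC_Os12g38900 in every panel, and the lowest point after PAL at P2 is LOC_Os02g56460, which had 22, 45 and 55 counts in SP2 and was listed at 0 in all FP2 libraries, so that its fitted value is no measure of size.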

How the data were processed

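RNA-seq was analysed in 18 libraries, 6 groups of 3 replicates, taken from the table of coding genes, in which 0 sample columns were left unmatched. The authors aligned reads with HISAT2 to the rice genome of MSU version 7.0, and the submitters' processing notes also name StringTie 1.3.1. The counting program and its treatment of fragments with several positions are not given in the sources used here. The deposited counts are estimated counts in whole numbers, without normalization, and were tested with the count model planned for read counts. The deposited FPKM values of the authors were used for levels between genes.

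Counts were tested in R 4.3.3 with edgeR 4.0.16 (glmQLFit and glmQLFTest), TMM factors, robust dispersion and no block, for genes with at least 10 counts in at least 3 libraries of the fit. P-values were adjusted by Benjamini-Hochberg over all genes tested. SEs were approximated as the size of the log2 fold change over the root of the F statistic. The steps between stages and the interactions came from 1 fit of all 18 libraries. The replicates are described as biological, and no label says which were grown together. The procedure was tested on simulated data. Alternatives were DESeq2 1.42.0, limma 3.58.1 on log2(FPKM + 1) and on log2(FPKM + 0.1), no TMM, no filter, all 18 libraries in 1 fit, a replicate block, an adjusted P below 0.01, no minimum fold change, and each library left out in turn. Summing the chromosome 2 loci was added after the data were seen. Figures were drawn with matplotlib 3.10.9.

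The members and the gene lists were chosen with earlier results of these data known. Every member is named. Of the pathway loci, those called the same way at 2 or more stages, or among the 3 with the smallest P at a stage, are named, together with LOC_Os02g56460, which was chosen after its values were seen. For LOC_Os02g41630 and LOC_Os02g41670, the 5 genes with the highest Pearson's r are named.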

Additional observations from a re-analysis of the deposited data

Results flagged for a closer look

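For 6 results, the difference between WXS (F) and WXS (S) itself differed between 2 stages in the interaction test of edgeR, in 3 against 3 libraries per stage. Members called were 2 of 7 from P2 to P3, against 14% of all genes, and 3 of 7 from P3 to P4, against 9.28%. From P2 to P4 it was 1 of 7, against 15.3%, so close to the share of all genes. From P2 to P3 the log2 difference of LOC_Os02g41630 changed by 1.38 (adjusted P = 3.95e-07), from 2.12 to 3.48 in the fits by stage. For LOC_Os02g41670 it changed by -1.69 over the same step (adjusted P = 0.00220), from 3.73 to 2.01. From P3 to P4 it changed by -1.77 for LOC_Os02g41630 (adjusted P = 9.20e-08) and by 1.85 for LOC_Os02g41670 (adjusted P = 0.00195). For LOC_Os02g41650 the change from P3 to P4 was -2.56 (adjusted P = 0.0268), in a group where FP3 replicate 1 had 43870 counts against 7726 and 8381 in the other FP3 libraries. For LOC_Os05g35290 the change from P2 to P4 was 1.15 (adjusted P = 0.00143), and without TMM it was 0.90 and not called.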

How the results depend on the processing

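Of 237 values of counts of members called and of shares recomputed under the alternatives, 226 stayed within the limits set, and 11 did not. Of 666 values of single members and of the chromosome 2 sum, 630 kept their direction and their side of the threshold, 29 kept the direction but lost the call, 1 gained it and 6 turned in sign. With an adjusted P below 0.01, 3 members were called at P2 and 3 at P3. At P3 the count was also 3 without a filter and 3 with limma on log2(FPKM + 1). With no minimum fold change, 1 member was called from SP2 to SP3 and 2 for the P2-to-P4 interaction, which also had 2 with DESeq2 and between 1 and 2 when each library was left out. With each library left out in turn, between 4 and 5 members were called at P2, between 4 and 5 at P3 and 4 throughout at P4. All of these were higher in WXS (F) except 1 of the 5 at P2 without FP2 replicate 3, where LOC_Os04g43760 was called lower and LOC_Os02g41680 was not called. Of the 6 values that turned, none was called in either fit. LOC_Os04g43800 at P4 was -0.0922 without TMM and -0.0111 with limma on log2(FPKM + 0.1), and lay between -0.11 and 0.21 with each library left out. With each library left out, LOC_Os02g41650 lay between -0.74 and 0.78 from FP2 to FP3 and between -0.71 and 0.81 from FP3 to FP4, both turning without FP3 replicate 1. The cause was not tested.

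LOC_Os02g41650 at P3 lost its call without TMM (adjusted P = 0.0507), without a filter (0.148) and with limma on log2(FPKM + 1) and log2(FPKM + 0.1) (0.0562 and 0.0538), and LOC_Os02g41680 without a filter at P2 (0.0690) and P3 (0.0665). The change of LOC_Os05g35290 from P2 to P4 was 0.90 without TMM, under the minimum size, as were LOC_Os05g35290 at P2 (0.92) and LOC_Os02g41670 at P3 (0.65) with limma on log2(FPKM + 1), and the P3-to-P4 change of LOC_Os02g41650 lost its call without a filter (adjusted P = 0.0670). Across all genes, calls rose with no minimum fold change from 4274 to 9711 at P2, from 5255 to 10515 at P3 and from 5526 to 13004 at P4. Leaving out TMM moved the median log2 fold change of all genes from 0.04 to 0.18 at P2 and from 0.003 to -0.10 at P4. With the replicate number as a block, 4 members were called at each stage, and LOC_Os02g41650 lost its call at P2 (1.85, adjusted P = 0.0634) and P3 (1.97, adjusted P = 0.0668). The deviations of same-numbered libraries from their group means had correlations between -0.0316 and 0.0460 in 9 pairs, and 4 of 9 WXS (S) libraries were closest to their own number. With no label for growth or handling, these values cannot tell whether libraries of the same number belong together. Low counts limit LOC_Os02g41670 and LOC_Os05g35290 in WXS (S), at 23 to 74 counts per library.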
